A study of Mus musculus with 2 samples.

Results

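The microRNAs (miRNAs) described here are the 5 main mature products of the paired miR-23/27/24 clusters: mmu-miR-23a-3p and mmu-miR-27a-3p from cluster a, mmu-miR-23b-3p and mmu-miR-27b-3p from cluster b, and mmu-miR-24-3p, which both clusters make (the species prefix is left out from here on). They were taken by name from the 1881 mouse miRNAs on the array, with all 10 of their probes. The levels come from 2 single-colour Agilent miRNA arrays of femurs of 9-month-old female C57BL/6 mice, homogenised fresh with marrow and bone together. One array held RNA from sham-operated animals. The other held RNA from ovariectomised (OVX) animals, whose ovaries had been removed. Each sample was a pool of 4 mice per the series description, and no other genotype or treatment is named in the labels. The comparison addresses what removal of the ovaries changes among femur miRNAs. A single array per group gives no replicate check. The values were therefore not tested, and "higher" and "lower" speak of these arrays alone.

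A miRNA guides a silencing complex to messenger RNAs through its seed, bases 2 to 8 from its 5′ end, so miRNAs with the same seed recognise largely the same sites. The clusters arose by duplication: in each, the 3 hairpins lie in the same order and are cut from one primary transcript. Products of cluster a are known from blood-forming cells and as restrainers of osteoblast formation, and those of cluster b from endothelial and epithelial cells. miR-27 is also known to limit fat-cell formation, and miR-24 to act on cell-cycle genes. These are background facts and not results of these arrays.

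The mature sequences are shown to make visible how little separates the paralogs; capitals mark the seed. They come from RefSeq (GRCm38.p6), where 4 of the 5 members matched an entry by name; miR-23b-3p did not.
miR-23a-3p: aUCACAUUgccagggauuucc
miR-27a-3p: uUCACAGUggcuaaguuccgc
miR-27b-3p: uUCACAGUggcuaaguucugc
miR-24-3p: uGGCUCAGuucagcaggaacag
miR-27a-3p and miR-27b-3p share their seed and 20 of 21 bases, and the substitution from a to b is C19U, counted from the 5′ end. miR-24-3p has 2 entries, one in each cluster, with the same sequence, so its signal cannot be assigned to either cluster. For miR-23 the hairpins are shown, with capitals on the letters that form the seed of miR-23a-3p; the same 7 letters start at base 47 of both hairpins.
Mir23a: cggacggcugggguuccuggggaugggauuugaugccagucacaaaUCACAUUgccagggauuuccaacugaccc
Mir23b: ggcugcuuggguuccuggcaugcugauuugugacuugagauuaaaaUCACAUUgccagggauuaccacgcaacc
In the RefSeq table cluster a covers 404 bases of chromosome 8 and lies within no listed gene. Cluster b covers 792 bases of chromosome 13 and lies inside Aopep, a protein-coding gene for an aminopeptidase. The gap between the miR-27 and miR-24 hairpins is 56 bases in cluster a and 423 bases in cluster b.

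The array probes are complementary to the 3′ part of each miRNA, and they are shown because they set how far the array can separate a from b. Capitals mark the base that differs between paralogs.
miR-23a-3p, 17 bases: ggAaatccctggcaatg
miR-23b-3p, 17 bases: ggTaatccctggcaatg
miR-27a-3p, 17 bases: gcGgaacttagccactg
miR-27b-3p, 17 bases: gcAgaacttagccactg
miR-24-3p, 17 bases: ctgttcctgctgaactg
Counted from the probe's 5′ end, the a-to-b substitution is A3T for miR-23 and G3A for miR-27, and the other 16 of 17 bases are the same. The second probe of each member is 1 base longer at its 3′ end (miR-23a-3p and miR-24-3p, 18 bases) or 1 base shorter (miR-23b-3p, miR-27a-3p and miR-27b-3p, 16 bases). The 17-base probes of miR-23a-3p, miR-27a-3p and miR-27b-3p pair with bases 5 to 21 of the miRNA and that of miR-24-3p with bases 6 to 22. How much of a probe's signal came from the other paralog was not tested. In the deposited files, which use mouse build mm9, the 17-base probe of miR-23a-3p matches chromosome 8 from 86732467 to 86732482 and that of miR-27a-3p from 86732631 to 86732646. The miR-23b-3p probe matches chromosome 13 from 63401842 to 63401857 and the miR-27b-3p probe from 63402073 to 63402088. The miR-24-3p probe matches both places, chromosome 8 from 86732779 to 86732795 and chromosome 13 from 63402564 to 63402580. Some of these listed matches span 1 base less than the probe.

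All 5 members were present on both arrays, and 9 of their 10 probes were measured, which here means that over 50% of a probe's spots were well above background on each array. With the main scaling, in which each array is set to its own 75th percentile, the members were 0.772 to 0.838 times as high in OVX as in sham. All 5 lay within a narrow band, from log2 -0.37 for miR-24-3p to -0.25 for miR-27b-3p, below the median of -0.04 over the 197 miRNAs measured on both arrays. This places them relative to the other miRNAs on the arrays, and the sign depends on the scaling. Without scaling all 5 were above 0, from 0.64 to 0.76, while the median of all was 0.97. When arrays were scaled to control probes they ran from 0.30 to 0.42, beside a median of 0.63. At the 75th percentile of the measured probes the OVX array was 2.02 times as bright as the sham array (log2 1.01), and the main scaling sets this difference to 0. The control probes differed by a median of log2 0.34 only. Whether the rest came from the handling of the RNA or from the femurs was not tested. In whole femur, fewer cells of a type and less miRNA per cell cannot be told apart.

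The spots of each probe give the measurement behind these values. Each member probe had 15 spots per array; of the 150 member spots, 7 in sham and 6 in OVX carried an outlier flag and were left out, and none was saturated. Signals are processed intensities in arbitrary units, before scaling. Brightness depends on the probe, so a probe is compared only with itself on the other array. The negative control spots reached 9.40 in sham and 10.3 in OVX.

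miR-23a-3p, of cluster a, was read by its 17-base probe at 55.7 ± 10.3 (SD, 15 spots) in sham and 95.8 ± 11.8 (SD, 15 spots) in OVX. The lowest, median and highest spots were 35.6, 58.6 and 72.5 in sham and 76.2, 101.0 and 112.7 in OVX. Every OVX spot was brighter than every sham spot before scaling. Its 18-base probe gave 227.9 ± 11.1 (SD, 13 spots) in sham and 339.6 ± 26.1 (SD, 15 spots) in OVX, again without overlap. After scaling, the differences were -0.23 (spot SE 0.08) and -0.44 (spot SE 0.03), where the spot SE is the standard error from the spread between spots within the arrays and holds no variation between mice. The longer probe therefore lay further below 0. The mean over both, -0.33 (spot SE 0.04), corresponds to 0.793-fold.

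miR-23b-3p, the cluster b paralog, was read by its 17-base probe at 81.9 ± 4.25 (SD, 13 spots) in sham and 133.8 ± 9.01 (SD, 15 spots) in OVX. The spots ran from 75.1 through a median of 82.1 to 90.6 in sham and from 123.4 through 132.0 to 152.1 in OVX, with no overlap before scaling. Its 16-base probe was dim, at 22.6 ± 5.35 (SD, 14 spots) and 34.1 ± 10.6 (SD, 15 spots). There 13 of the 14 sham spots lay at or above the lowest OVX spot of 12.2, and 11 of 14 sham and 13 of 15 OVX spots were well above background. The scaled differences were -0.30 (spot SE 0.03) for the 17-base probe and -0.42 (spot SE 0.15) for the 16-base probe. The mean was -0.36 (spot SE 0.08), or 0.779-fold.

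miR-27a-3p, whose gene lies between those of miR-23a and miR-24 in cluster a, gave 188.5 ± 11.7 (SD, 14 spots) in sham and 284.8 ± 19.1 (SD, 15 spots) in OVX with its 17-base probe. Those spots had a lowest, median and highest value of 168.4, 190.2 and 208.9 in sham and 248.6, 287.7 and 314.9 in OVX. The 16-base probe gave 59.3 ± 7.90 (SD, 15 spots) and 99.4 ± 3.96 (SD, 12 spots). Neither probe's spots overlapped between the arrays before scaling. Scaled, the longer probe differed by -0.42 (spot SE 0.03) and the shorter by -0.27 (spot SE 0.05). Together they gave -0.34 (spot SE 0.03), or 0.789-fold.

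miR-27b-3p rested on 1 measured probe. That 17-base probe gave 32.9 ± 6.83 (SD, 15 spots) in sham, with spots from 20.1 through a median of 34.0 to 42.7. In OVX it gave 55.6 ± 5.43 (SD, 14 spots), with spots from 43.8 through 56.6 to 62.5, so the brightest sham spot and the dimmest OVX spot lay close together without crossing. The 16-base probe was not well above background on either array, at 6.23 ± 2.94 (SD, 15 spots) and 10.5 ± 3.65 (SD, 15 spots), and its means lie within the span of the negative controls on the sham array and just above it on the OVX array. The scaled difference of the 17-base probe was -0.25 (spot SE 0.09), or 0.838-fold. No difference is given for the dim probe, which was left out of that value.

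miR-24-3p, made from both clusters, gave 116.3 ± 9.59 (SD, 14 spots) in sham and 173.7 ± 10.01 (SD, 13 spots) in OVX with its 17-base probe, whose spots ran from 100.3 through 114.9 to 129.5 and from 150.1 through 176.5 to 189.7. The 18-base probe gave 140.4 ± 23.5 (SD, 15 spots) in sham and 228.2 ± 26.2 (SD, 15 spots) in OVX, from 93.8 through 151.2 to 169.7 and from 179.2 through 240.7 to 257.0. Both were separate between the arrays before scaling. The scaled differences were -0.43 (spot SE 0.04) and -0.31 (spot SE 0.08). Their mean of -0.37 (spot SE 0.04), or 0.772-fold, was the lowest of the 5.

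**Figure D1:**
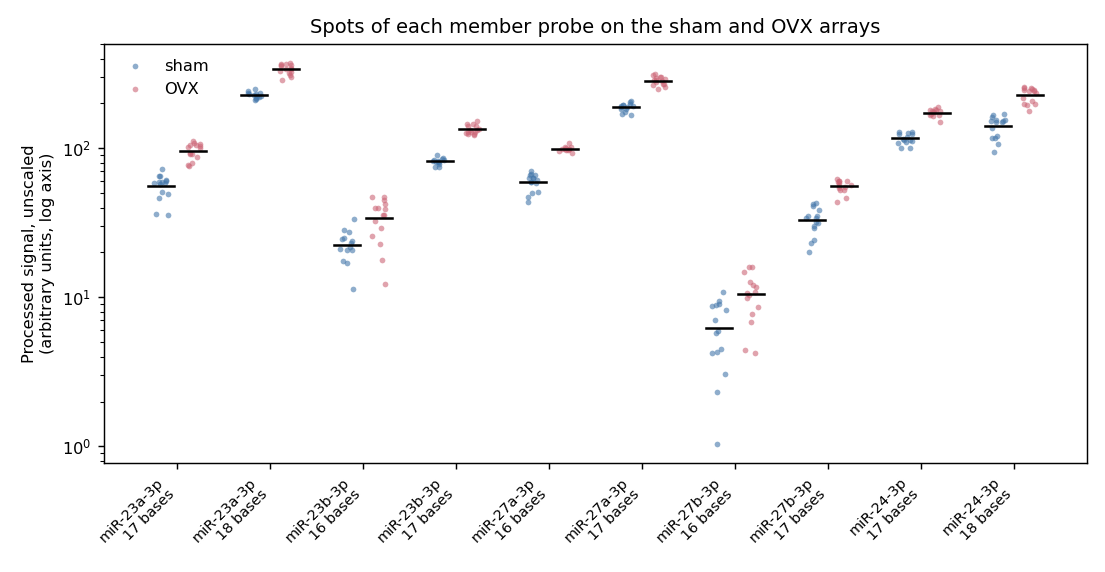
Processed signal of every usable spot (log axis, arbitrary units, before scaling) for the 10 member probes on the sham and OVX arrays; black bars are the means over spots. In 8 of the 10 probes every OVX spot lies above every sham spot; the spots overlap in the 16-base probes of miR-23b-3p and miR-27b-3p.

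Before scaling, 8 of the 9 measured member probes had every OVX spot above every sham spot. The same was true of 76% of the 350 probes measured on both arrays, a share close to that of the members. After scaling, 3 member probes had every OVX spot below every sham spot: the 18-base probe of miR-23a-3p and the 17-base probes of miR-27a-3p and miR-24-3p. Among all measured probes that share was 18.3%. No member probe had every scaled OVX spot above every sham spot, which held for 18.9% of all probes. The spots of a probe are repeats on 1 array, and their separation says nothing about the spread between mice.

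**Figure D2:**
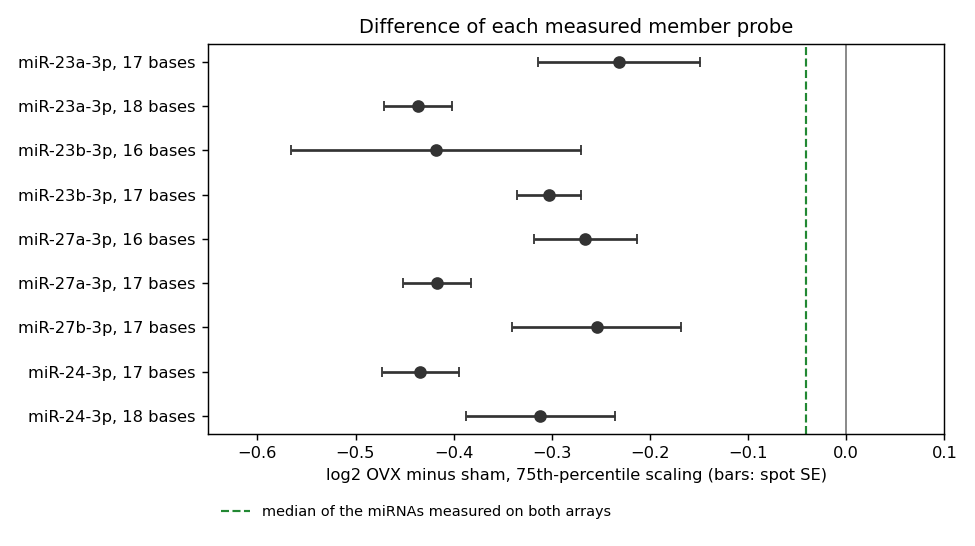
Log2 difference, OVX minus sham after 75th-percentile scaling, of the 9 measured member probes; bars are the spot SE, and the dashed line is the median of the 197 miRNAs. They lie between -0.44 and -0.23, all left of the dashed line at -0.04.

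The a and b paralogs gave differences that the spot error could not separate. For miR-23 the a-minus-b contrast, the difference of miR-23a-3p less that of miR-23b-3p, was 0.03 (spot SE 0.09; 95% interval from the spots -0.15 to 0.20). For miR-27 it was -0.09 (spot SE 0.09; interval -0.27 to 0.09). These contrasts are taken within the arrays, so scaling by a constant cannot move them, and the intervals hold spot error only. They still allow a to exceed b by 0.20 for miR-23 and to fall short of it by 0.27 for miR-27. Probes of equal length gave 0.07 for miR-23 (interval -0.10 to 0.25) and -0.16 for miR-27 (interval -0.34 to 0.02). That comparison, chosen after seeing the data, removes the difference in probe length but rests on 1 probe a side. No contrast is given for the 16-base miR-27 probes, since that of miR-27b-3p was not well above background on either array.

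The sign of neither contrast was stable. The miR-23 contrast was -0.13 with the brightest probe of each member and 0.14 in the authors' deposited value table. The miR-27 contrast was 0.12 with normexp background correction, which adds an offset of 50 that draws dim signals together, and 0.05 in the value table. miR-27b-3p is the dimmest member, and its own difference moved from -0.25 to -0.42 with normexp, below that of miR-27a-3p at -0.30.

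Over all 10 pairings of the 5 members, the contrasts ran in size from 0.01, between miR-23a-3p and miR-27a-3p, to 0.12, between miR-27b-3p and miR-24-3p. Every one of the 10 spot intervals included 0. Probes of the same miRNA differed from each other with a pooled SD of 0.11 over the 139 miRNAs with at least 2 measured probes. Only the pairing of miR-27b-3p with miR-24-3p was larger than that. The SD between the 5 members was 0.05, against 0.52 between all 197 miRNAs. The paralogs' probes share 16 of 17 bases and miR-24-3p comes from both clusters, so the members are not independent readings and the narrow band was not tested.

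The scaled difference had no common order by probe length in the 4 members with both probes measured. For miR-23a-3p (-0.44 against -0.23) and miR-27a-3p (-0.42 against -0.27) the longer probe had the lower difference. For miR-23b-3p (-0.30 against -0.42) and miR-24-3p (-0.31 against -0.43) the longer probe had the higher one.

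The shares and ranks below are of the 197 miRNAs measured on both arrays. A probe well above background was found for 202 miRNAs in sham and for 299 in OVX. Those above background on 1 array alone enter none of these shares or ranks. None of the 5 members differed by at least 2-fold with the main scaling, where 2.03% of the 197 miRNAs passed that fold upwards in OVX and 2.03% downwards. None differed by at least 1.5-fold either, where the shares of all were 11.2% higher and 14.7% lower. Without scaling all 5 were at least 1.5-fold higher, as were 78.7% of the 197, and none was at least 2-fold higher, as were 49.2%. With control-probe scaling no member reached 1.5-fold either way, where 54.8% of all did so upwards and 1.02% downwards, and none reached 2-fold, where 21.8% did so upwards. Ranked from the lowest difference, miR-24-3p stood at place 49 of 197, miR-23b-3p at 51, miR-27a-3p at 55, miR-23a-3p at 57 and miR-27b-3p at 71. The first quartile of all was -0.36 and 104 of the 197 were below 0. Another 18 miRNAs lay between the lowest and the highest member. Among 84 other miRNAs whose mean level over the arrays fell within the range of the members, the median difference was 0.14, with quartiles of -0.26 and 0.42, and 36 were below 0.

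**Figure D3:**
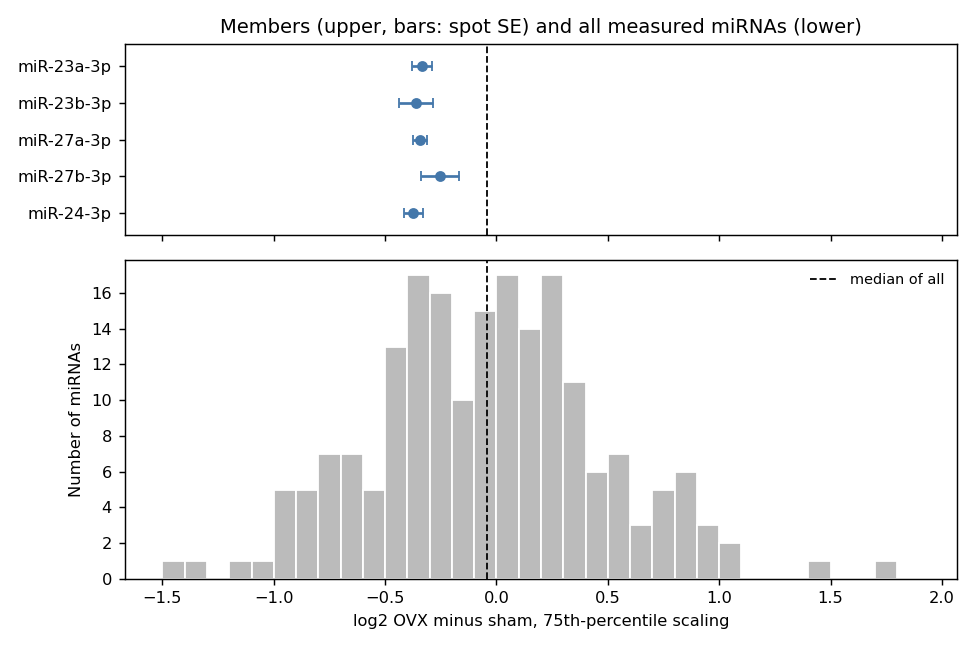
Upper panel: log2 difference of each member with its spot SE. Lower panel: number of the 197 miRNAs measured on both arrays by log2 difference, OVX minus sham after 75th-percentile scaling, with the median of all at -0.04 as a dashed line; the 5 members sit between -0.37 and -0.25, near the first quartile of -0.36.

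The 5 members lay below the median of all miRNAs in each of the 16 alternative settings tried, a side on which 50% of all miRNAs lie by definition. The distance of their median from that of all miRNAs was -0.30 as reported and ranged from -0.37 in the value table to -0.04 with normexp. Scaling that adds a constant leaves that distance at -0.30. In the authors' deposited value table, with its row names moved by 1 row as the scanner files require, miR-23a-3p went from 6.57 in sham to 6.23 in OVX and miR-24-3p from 6.47 to 6.08. The differences there were -0.34 for miR-23a-3p, -0.48 for miR-23b-3p, -0.40 for miR-27a-3p, -0.45 for miR-27b-3p and -0.39 for miR-24-3p. With the gene-level signal that Agilent's software computes, miR-23b-3p (0.02) and miR-27b-3p (0.09) were just above 0 and the others just below, beside a median of all of 0.19.

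**Figure D4:**
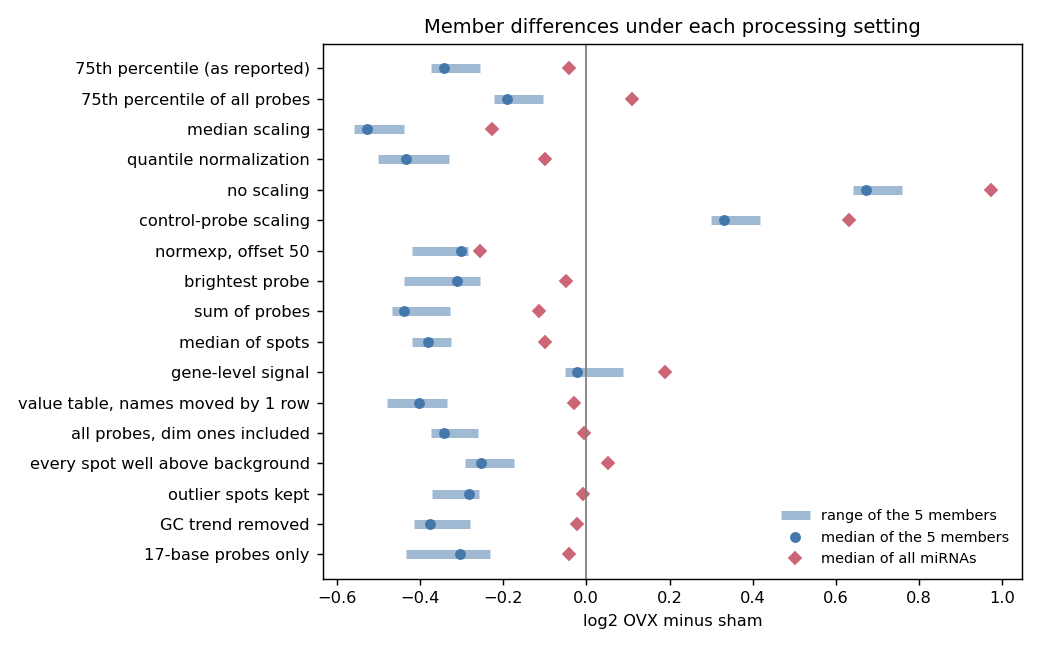
Log2 difference, OVX minus sham, under the reported setting and 16 alternatives: bars span the 5 members, circles are their median and diamonds the median of all miRNAs measured. The bars lie right of 0 in the settings with no scaling and with control probes, span 0 with the gene-level signal, and in every setting lie left of the diamond.

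Each hairpin also yields a strand from its other arm, and the miR-24 hairpins overlap the miR-3074 hairpins on the opposite DNA strand. These 9 further products, miR-23a-5p, miR-23b-5p, miR-27a-5p, miR-27b-5p, miR-24-1-5p, miR-24-2-5p, miR-3074-5p, miR-3074-1-3p and miR-3074-2-3p, had 24 probes. None of the 24 was well above background on either array. Their mean signals ran from -5.13 to 3.12 in sham and from -5.72 to 4.89 in OVX, while the dimmest probe well above background stood at 17.8 and 19.3. For miR-24 the 5p arms differ between the clusters: miR-24-1-5p comes from cluster b and miR-24-2-5p from cluster a. At these signals neither was measured, and no share of miR-24-3p can be given to a cluster.

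By seed, miR-27a-3p and miR-27b-3p had only each other among the miRNAs on the array with a mature entry in the RefSeq table. miR-23a-3p had none there; miR-23b-3p, whose hairpin holds the same 7 letters, was not part of that search. The seed of miR-24-3p was shared by miR-5124b, miR-6369, miR-6410 and miR-6413, none of which was well above background on either array. miR-128-3p, whose seed overlaps that of miR-27 by a shift of 1 base, was not well above background in sham, at 12.3 with 1 of 14 spots passing for its 20-base probe. In OVX that probe stood at 24.4 with 13 of 15 spots passing. Its scaled levels were -3.39 and -3.41, and no fold is given because the bound was below 1.

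Of the other miRNAs with at least 2 measured probes, those nearest to the members' median over these 2 arrays were miR-15b-5p (log2 -0.34), miR-574-5p (-0.35), miR-6385 (-0.33), miR-2137 (-0.36) and miR-1187 (-0.36). The measure of likeness is the distance of the difference from -0.34, which was at most 0.02 for these 5. With 2 arrays many miRNAs are alike by this measure.

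miRNAs listed as markers of cell types differed between the arrays in either direction. Neither whether they came from those cells alone nor their part in the members' values was tested. Of the fixed marker lists, all 4 red-cell miRNAs were measured on both arrays, with differences from -0.71 (miR-486a-5p) to 0.97 (miR-144-5p) and summed unscaled probe signals of 6826 in sham and 16536 in OVX. Of 4 granulocyte and other blood-cell miRNAs 3 were measured, from -0.63 (miR-223-3p) to 1.08 (miR-142a-5p), with 2 above 0 and 1 below. Their list sums were 9237 and 13711, of which miR-223-3p gave 8430 and 11046. The fourth, miR-223-5p, was not well above background on either array. All 4 lymphocyte miRNAs were measured, from -0.36 (miR-181b-5p) to 1.43 (miR-150-5p), with 2 above 0 and 2 below and sums of 386.7 and 1016. The endothelial miR-126a-3p differed by 0.77, and miR-126a-5p was not well above background; the sums of this list were 57.4 and 190.7. No muscle miRNA (list sums 58.4 and 57.0) and no stromal one (list sums 4.58 and 38.8) was measured on both arrays. The muscle miR-133a-3p and miR-133b-3p each had 1 probe well above background in sham and none in OVX. Those probes were dimmer in OVX even before scaling, at 19.5 in sham and 10.8 in OVX for miR-133a-3p and 26.8 and 16.3 for miR-133b-3p. The muscle miR-1a-3p and miR-206-3p were not well above background on either array, and their signals enter the muscle sums (miR-206-3p with -5.34 and 13.9). The stromal miR-199a-3p had 1 probe well above background in OVX, at 22.6 against 8.12 in sham, where none was. miR-143-3p, miR-145a-5p and miR-214-3p were not well above background on either array. Most miRNAs of the red-cell, blood-cell and lymphocyte lists were thus well above background on both arrays, and none of the stromal or muscle ones was. These lists do not separate marrow from circulating blood. The members' differences lay between those of miR-223-3p and of miR-142a-5p, both on the blood-cell list. That span is wide and also holds both quartiles of all 197 miRNAs, -0.36 and 0.28. A link of the members to blood cells was not tested.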

How the data were processed

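The authors deposited 1 scanner file per array from Agilent Feature Extraction, whose version is 10.7.1.1 per the file headers and 11.0.1.1 per the submitters' processing notes. The processed intensity was background-subtracted and left unnormalized between arrays, per the file headers, and the uncorrected mean and local background intensities are given beside it. The deposited value table holds the authors' log2 values; their normalization is not given in the sources used here. Both columns have medians at their floors, -3.18 (sham) and -3.32 (OVX), so the centring stays unknown. Against Agilent's gene-level signal its names as printed gave Spearman correlations of 0.02 and 0.04 over 1881 miRNAs and, moved by 1 row, 0.996 and 0.994, so it served only as an alternative with moved names.

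Spots with an outlier flag and control spots were left out. The mean over a probe's spots was taken to log2 and scaled to the 75th percentile of the 350 probes well above background (over 50% of spots) on both arrays. Measured probes of a miRNA were averaged for its level. Spot SEs were propagated on the log2 scale, and intervals are 1.96 SE. On the sham array 9.24% of miRNA spots and on the OVX array 13.5% were well above background. The number of arrays limits the precision. Tools were Python 3.11.15, numpy 2.4.6, pandas 2.3.3, scipy 1.17.1 and, for normexp, limma 3.58.1 in R 4.3.3. The calculation was run on simulated spots with known folds and a common brightness factor for all probes. Such a run checks the arithmetic and cannot show whether the scaling is right for these arrays. Alternatives changed scaling, background correction, summaries, filters and values; GC-trend removal and 17-base probes only were added after seeing the data. The miRNAs named are the members, the other products of their hairpins or of the opposite strand, miRNAs sharing a seed, miR-128-3p, the 5 nearest in difference among those with 2 or more measured probes, and the marker lists. Members and lists were chosen with earlier results of these data known.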

Additional observations from a re-analysis of the deposited data

How the results depend on the processing

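The members' median, -0.34 as reported, was -0.19 with the 75th percentile of all probes, -0.53 with median scaling, 0.67 with no scaling, 0.33 with control probes as the scale and -0.023 with the gene-level signal. In the other 11 alternatives it stayed within 0.11, the SD between probes of a miRNA, of the reported value. The miR-23 contrast, 0.03 as reported, was -0.13 with the brightest probe and 0.14 in the value table. The miR-27 contrast, -0.09 as reported, was 0.12 with normexp and 0.051 in the value table. No member reached 2-fold in any alternative, nor 1.5-fold except without scaling. Of the 80 member values under the 16 alternatives, 68 were below 0 and 12 above. The 12 came from no scaling, control-probe scaling and, for miR-23b-3p and miR-27b-3p, the gene-level signal. These are the same 5 members on the same 2 arrays, so the tally holds no repeats. The median of all miRNAs changed sign as well, from -0.26 with normexp to 0.97 with no scaling. With the main scaling 52.8% of the 197 miRNAs were below 0. The control probes used for scaling differed between the arrays by 0.04 to 0.80 (28 probes, median 0.34). Probe differences fell with GC content (Spearman's rho -0.31 across 350 probes, which are not independent). The member probes hold 50% to 58.8% GC, around the median of 53.3% over all measured probes. With the GC trend removed the members' median was -0.37, beside a median of all of -0.02. The causes were not tested. No paired analysis was possible because each group has 1 sample, and no sample could be left out for the same reason. Signal over background limits miR-27b-3p and the 16-base probe of miR-23b-3p most.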
